A study of Mus musculus with 18 samples.

Results

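The genes described here encode the MCM helicase and the factors that license DNA for replication: Mcm2, Mcm3, Mcm4, Mcm5, Mcm6, Mcm7, Cdc6, Cdt1, Gmnn and Pcna. They were followed through every probe set of the chips U74Av2, U74Bv2 and U74Cv2 whose annotation gives 1 of these genes as its only symbol. This choice gave 17 of 36701 probe sets, for 10 of 15964 genes. Of the 17 probe sets, 13 are on U74Av2, 4 on U74Cv2 and 0 on U74Bv2, and 6 of the 10 genes have a single probe set. The names of 5 probe sets carry a suffix letter (_s, _r or _f), which marks a design under relaxed rules or possible binding of other transcripts.

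Before a cell copies its DNA, the origin recognition complex and Cdc6 bind at origins, and Cdt1 brings the ring of the 6 MCM proteins, which is closed around the DNA and later unwinds it at the fork. Geminin, the product of Gmnn, binds Cdt1 and blocks new loading, and the sliding clamp PCNA holds the DNA polymerases on the template and serves as the platform on which Cdt1 is marked for degradation. Mouse embryonic stem (ES) cells divide fast and spend much of their cycle in DNA replication, and the genes of licensing are known targets of E2F transcription factors.

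The study compared WT ES cells of the FVB/N mouse strain, cultured with LIF, with FVB/N ES cells of 1 transgenic line, which overexpress STAT3-MER and were cultured with 4-hydroxytamoxifen (OHT) and without LIF. STAT3-MER is STAT3 fused to a modified ligand-binding domain of the mouse estrogen receptor, a β-actin promoter from chicken drives its expression, and OHT activates it. Transgene, OHT and the absence of LIF differ between the groups together and cannot be told apart. Each group had 3 independently cultivated dishes, and the RNA of each dish was amplified in 2 rounds and hybridized to the 3 chips, so that p-values measure the spread between dishes of 1 line per group. The cells were grown on mouse fibroblasts whose division had been stopped with mitomycin C, so fibroblast RNA can enter a sample, and fewer cells of a type cannot be told apart from less RNA per cell.

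The values are signal intensities on a linear scale, 1 per probe set and array, without detection calls. The trimmed mean of an array lay between 500.1 and 500.3 on all chips. The label of the transgenic cells was checked through Esr1, the estrogen receptor gene: its probe set 93945_at lay between 9.25 and 40.3 in the WT dishes and between 25568 and 31548 in the STAT3-MER dishes. The other probe sets of Esr1 showed no such difference, with group means between 18.4 and 130. All 14 ES cell markers examined were measured, and none of their signals was below 149. Of the 26 feeder fibroblast markers, 25 were measured and none was at 0, with a summed signal from 23810 to 57680 over the WT dishes and from 13920 to 60020 over the STAT3-MER dishes. The label of 1 STAT3-MER array (U74Av2) lacks a replicate number, and 2 was used for it. Arrays on different chips were assigned to a dish by this number, so that values within U74Av2 are given apart where dishes are compared.

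To show what the promoters of these genes share, the windows of RefSeq (GRCm38.p6) from 250 bases before to 50 bases after a gene's start were searched on both strands for the letters TTTCGCGC, TTTGGCGC, TTTCCCGC and TTTGCCGC, which are forms of the E2F motif. Windows were at hand for 8 of the 10 genes, without Mcm4 and Gmnn. At least 1 match stood in 6 of these 8 genes (75%), Mcm3, Mcm5, Mcm6, Mcm7, Cdt1 and Cdc6, against 2.6% of 27025 genes and 2.26% of 32851 windows. Taken singly, TTTCGCGC stood in 0.323% of all windows, TTTGGCGC in 0.514%, TTTCCCGC in 1.07% and TTTGCCGC in 0.441%. None stood in the windows of Mcm2 and Pcna, nor in a second window of Mcm7. Position 1 below is the annotated start and -1 the base before it, and capitals mark the matched letters.
Mcm5, chr8:75109331-75109392, plus strand: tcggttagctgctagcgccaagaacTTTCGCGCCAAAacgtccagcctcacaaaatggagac
Mcm6, chr1:128359720-128359840, minus strand: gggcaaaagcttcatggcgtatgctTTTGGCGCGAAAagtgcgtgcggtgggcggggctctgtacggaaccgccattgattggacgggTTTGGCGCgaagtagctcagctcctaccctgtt
Mcm7, chr5:138172016-138172073, minus strand: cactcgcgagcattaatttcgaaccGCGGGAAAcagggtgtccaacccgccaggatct
Cdc6, chr11:98907988-98908045, plus strand: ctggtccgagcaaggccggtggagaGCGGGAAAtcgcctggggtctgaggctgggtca
Mcm3, chr1:20820276-20820303, minus strand: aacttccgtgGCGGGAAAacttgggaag
Cdt1, chr8:122568037-122568064, plus strand: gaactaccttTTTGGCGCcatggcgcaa

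In Mcm5 the letters TTTCGCGC on the strand of the gene (at -153) and TTTGGCGC on the other strand (at -149) overlap, so that 1 stretch holds both. The same holds in Mcm6, with TTTGGCGC at -110 and TTTCGCGC on the other strand at -106, and a second TTTGGCGC stands at -47. In Mcm7 and Cdc6 the letters TTTCCCGC lie on the strand opposite to the gene, at -165 and -138, and Mcm7 has TTTCGCGC at 17. The match shown for Mcm3 is TTTCCCGC at 20 on the other strand, followed by TTTGGCGC at 39, and that of Cdt1 is TTTGGCGC at 33. These matches describe letters and carry no statement on binding in these cells.

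The helicase genes were read at strong signals in both groups, apart from Mcm6, and none of them passed the test. Signals are not compared between probe sets. Mcm2, a subunit of the ring, had 2520.1, 3798 and 3011 in WT dishes 1, 2 and 3, and 4253, 2427 and 3697 in STAT3-MER dishes 1, 2 and 3. The lowest and the highest dish are both STAT3-MER dishes. The difference, STAT3-MER minus WT on the scale log2(signal + 32), was 0.13 with a standard error (SE) of 0.26.

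Mcm3 was read by a pair of probe sets on U74Av2. The first, 100062_at, had 3251, 4502 and 2894 in the WT dishes and 4062, 2971 and 2983 in the STAT3-MER dishes, with a log2 difference of -0.08 (SE 0.23). The second, 160496_s_at, had 4627, 5894 and 3865 in WT dishes, against 6219, 4411 and 4679.5 in STAT3-MER dishes, with a log2 difference of 0.09 (SE 0.22). WT 2 and STAT3-MER 1 were the highest dishes in both, and WT 3 the lowest, while the sign of the difference was opposite.

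For Mcm4 the WT dishes gave 2192, 2827 and 2990.0 and the STAT3-MER dishes 3129, 1928 and 2741. Here too both extremes were STAT3-MER dishes, and the log2 difference was -0.05 (SE 0.23). Mcm7 gave 1622, 2468 and 2052 over the WT dishes, against 2795, 1935 and 2397 in STAT3-MER dishes. The groups overlapped, with a log2 difference of 0.22 (SE 0.22). Mcm4 and Mcm7, with Mcm6, form the part of the ring that can unwind DNA by itself in vitro.

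Mcm5 had the largest log2 difference among the helicase genes on U74Av2 that are represented by a bright probe set. Its probe set 100156_at had 1359, 1687 and 1552 in the WT dishes and 2790.3, 1456 and 1992 in the STAT3-MER dishes. STAT3-MER 1 and 3 lay above all WT dishes, and STAT3-MER 2 lay within them. The ratio of means was 1.36 and the log2 difference 0.39 (SE 0.25, two-sided exact permutation p = 0.3). On U74Cv2, 167677_r_at had 5639, 4763 and 5815 in WT dishes, against 6302, 6094 and 5594 in STAT3-MER dishes, a log2 difference of 0.15 (SE 0.19). The dim probe set 162102_r_at lay between 22.8 and 124 in the 6 dishes, and its log2 difference was -0.06 (SE 0.43) although its ratio of means was 1.04.

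Among the representative probe sets, that of Mcm6 had the largest log2 difference and the largest SE. This probe set, 169109_at on U74Cv2, had 139, 71.7 and 69.0 in WT dishes, against 83.0, 326 and 263 in STAT3-MER dishes. STAT3-MER 2 and 3 lay above all WT dishes and STAT3-MER 1 did not. The ratio of means was 2.4, with a log2 difference of 0.92 (SE 0.56, two-sided exact permutation p = 0.2). A second probe set on U74Cv2, 169271_r_at, had 665, 386 and 193 in WT dishes, against 398, 574 and 918 in STAT3-MER dishes, with a log2 difference of 0.64 (SE 0.48). On U74Av2 the probe set 100149_at had no signal over 40.4 and a log2 difference of 0.37 (SE 0.28). These were the 3 of 17 probe sets whose means differed by more than 1.5 times, and all 3 had overlapping groups.

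**Figure D1:**
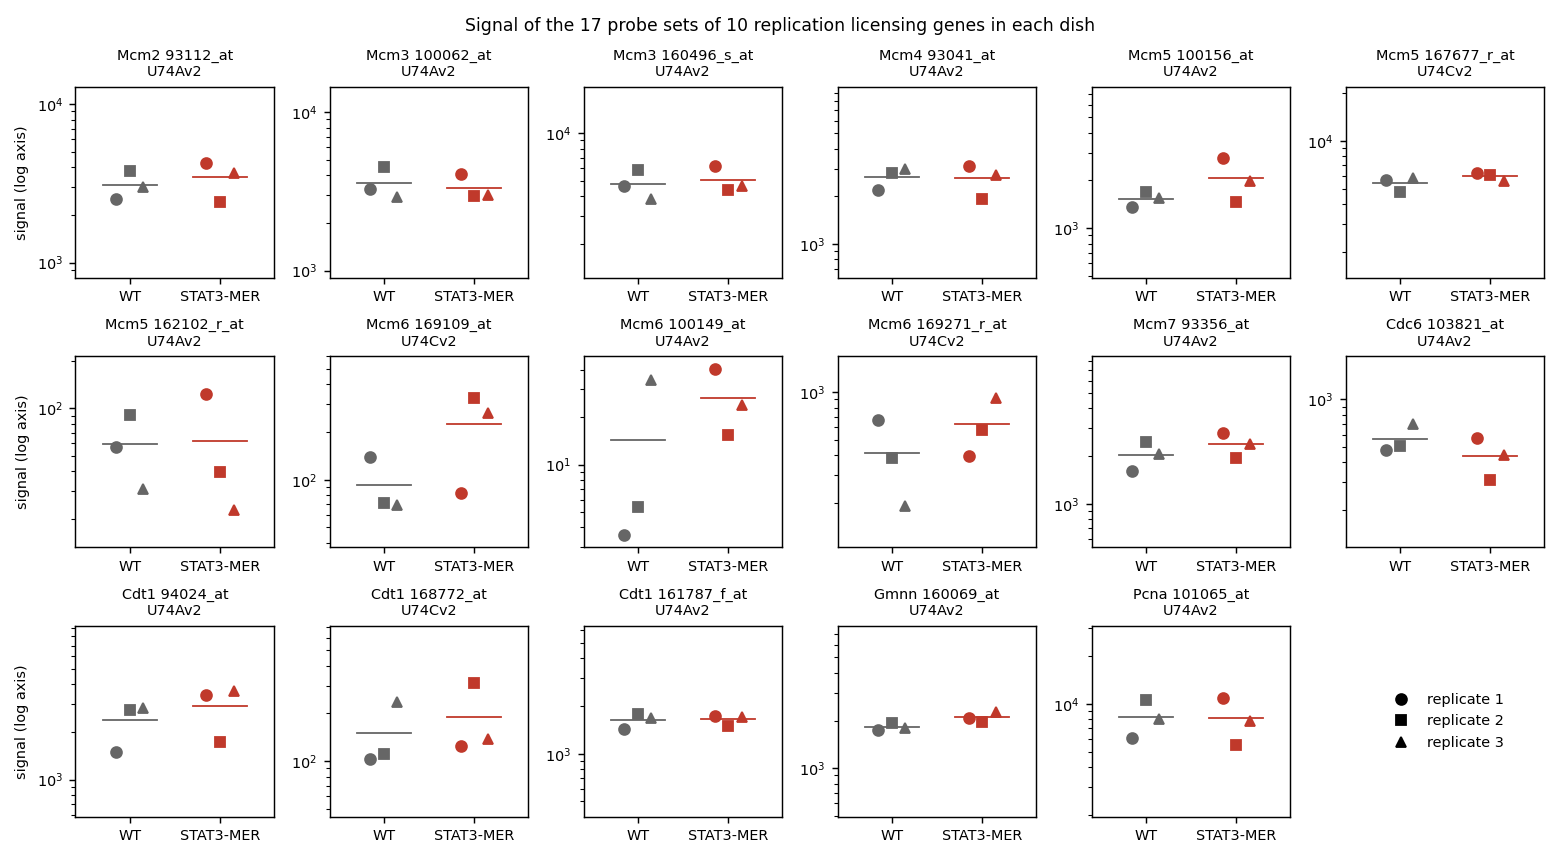
Signal (log axis) of each of the 17 probe sets by dish, in grey for WT and in red for STAT3-MER, with the shape giving the replicate number and the line the mean of 3 dishes. The groups overlap in each panel other than Gmnn, where the 3 STAT3-MER dishes (1946 to 2255) lie above the 3 WT dishes (1731 to 1925).

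Of the loading factors, Cdc6 had the lowest estimate of the 17 probe sets and Cdt1 a positive one. Cdc6, the ATPase that works with the origin recognition complex, had 481, 505 and 701 in WT dishes, against 567, 311 and 445 in STAT3-MER dishes. STAT3-MER 2 and 3 lay below all WT dishes and STAT3-MER 1 lay among them, for a log2 difference of -0.35 (SE 0.27, two-sided exact permutation p = 0.4). Leaving out STAT3-MER 1 therefore ends the overlap by construction, and the share of all probe sets is not given for this setting.

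Cdt1, which brings the helicase to Cdc6, was read by 3 probe sets. The representative one, 94024_at, had 1502, 2759 and 2823 in WT dishes, against 3424, 1731 and 3614 in STAT3-MER dishes. WT 1 and STAT3-MER 2 were low and the other 4 dishes high, and the log2 difference was 0.29 (SE 0.35). Without WT 1 it was -0.01. The probe set 161787_f_at had 1435, 1789 and 1688 in WT dishes, against 1727, 1498 and 1713 in STAT3-MER dishes, with a log2 difference of 0.01 (SE 0.17). On U74Cv2, 168772_at lay between 103 and 309, with a log2 difference of 0.28 (SE 0.53).

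Gmnn, the inhibitor of loading, was the member whose groups did not overlap. Its signals were 1731, 1925 and 1786 in the WT dishes and 2081, 1946 and 2255 in the STAT3-MER dishes. The means were 1814 ± 100.01 and 2094 ± 155 (SD, n = 3 each), a ratio of 1.15, and the lowest STAT3-MER dish and the highest WT dish were close. The log2 difference was 0.20 (SE 0.16), and the two-sided exact permutation p was 0.1, the smallest that 3 dishes against 3 can give.

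Pcna, the sliding clamp, had 6116, 10516 and 8060.3 in WT dishes, against 10938, 5491 and 7809 in STAT3-MER dishes. The highest and the lowest dish were STAT3-MER dishes, nearly 2-fold apart (1.99), while the group means, 8231 ± 2205 and 8079 ± 2733 (SD, n = 3 each), differed by little. The log2 difference was -0.05 (SE 0.30), and it turned to 0.15 without WT 2 and to 0.20 without STAT3-MER 2.

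Over the 17 probe sets, 0 passed limma's test at an adjusted p of 0.05, where 0.00272% of all probe sets were called higher (Esr1 93945_at alone) and 0% lower. The adjusted p was 1.00 for each of the 17. At an unadjusted limma p under 0.05 there were again 0 of 17, against 3.45% of all probe sets. Groups without overlap were found for 1 of 17 probe sets, Gmnn higher in STAT3-MER cells, against 4.5% of all probe sets higher, 3.63% lower and 8.13% in either direction. The count of higher ones was 3 without WT 1, without WT 3 or without STAT3-MER 2, and 2 without STAT3-MER 1 or without STAT3-MER 3, with Mcm5, Mcm6 or Cdt1 probe sets added, and that of lower ones was 1 (Cdc6) without STAT3-MER 1. With 2 dishes against 3 such a separation is reached more easily than with 3 against 3. The share of all probe sets is not given for these settings, so these counts have no background to be read against.

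The criteria of the study's methods (a ratio over 1.5, a difference over 100 and a p under 0.1 in the methods' t-test) were met by 0 of 17 probe sets and by 1.98% of all (1.1% higher and 0.872% lower). Without STAT3-MER 1 they were met by 1, Mcm6 169109_at, and the share of all probe sets is not given for this setting. The p criterion alone was met by 1 of 17 (Gmnn), against 5.47% of all probe sets, and by 0 after Benjamini-Hochberg adjustment. A log2 difference above 0 was found for 12 of 17 probe sets and 6 of 10 genes, beside 51.2% of all probe sets. The median log2 difference of the 10 genes was 0.17, and that of all genes 0.0040. The SE of the 10 genes ran from 0.16 (Gmnn) to 0.56 (Mcm6).

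**Figure D2:**
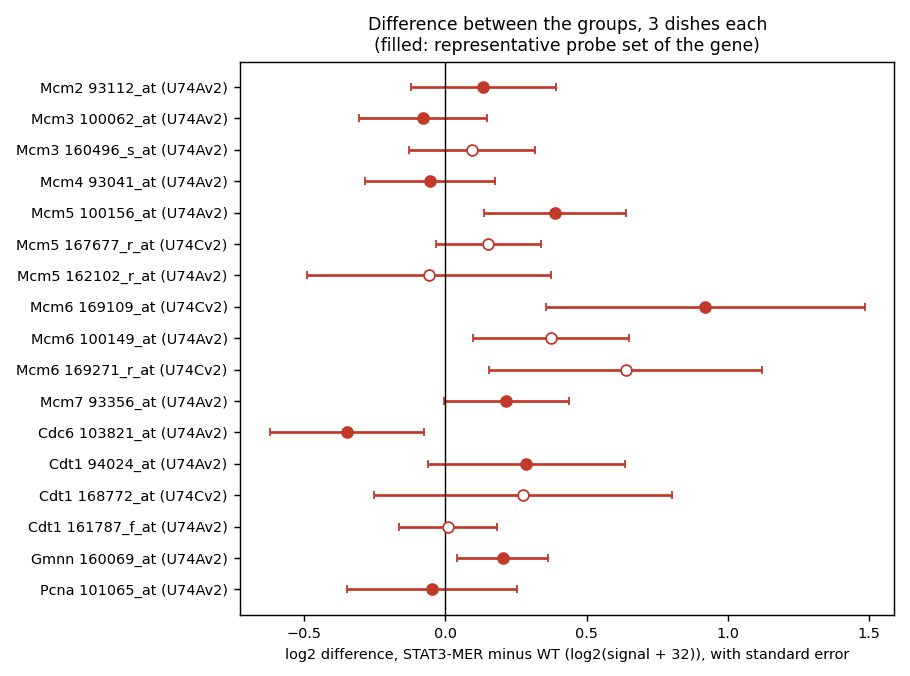
Log2 difference, STAT3-MER minus WT, with its SE for each of the 17 probe sets (3 dishes per group), filled for the representative probe set of a gene. The values run from -0.35 (Cdc6) to 0.92 (Mcm6), and none passed the test.

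Dishes of one group differed among themselves, and on U74Av2 the members shared the direction of these differences. In all 11 member probe sets of U74Av2 with a mean signal of 200 or more, WT 2 was above WT 1, and in all 11 STAT3-MER 1 was above STAT3-MER 2. Over the 5549 probe sets of this chip with such a signal, both held in 34.5%, and the single orders in 48.6% and 48.7%. WT 2 or STAT3-MER 1 was the highest dish in 8 of the 11, and WT 1 or STAT3-MER 2 the lowest in 9 of the 11. For these counts the share of all probe sets is not given, and the 11 hold a pair of probe sets each for Mcm3 and Cdt1. The order of dishes was chosen after the values were seen. The mean of the 9 genes on U74Av2, centred on the log2 scale, was -0.30, 0.16 and 0.02 in WT 1, 2 and 3 and 0.35, -0.34 and 0.11 in STAT3-MER 1, 2 and 3. The order was not particular to the members. For 34 genes of the fork and of DNA synthesis on this chip, described below, this mean was -0.14, -0.01 and 0.11 in the WT dishes. In the STAT3-MER dishes it was 0.11, -0.16 and 0.08. The mean of the other licensing and firing genes and that of the mitotic genes had both orders too. That of the regulators of licensing had the WT order alone.

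**Figure D3:**
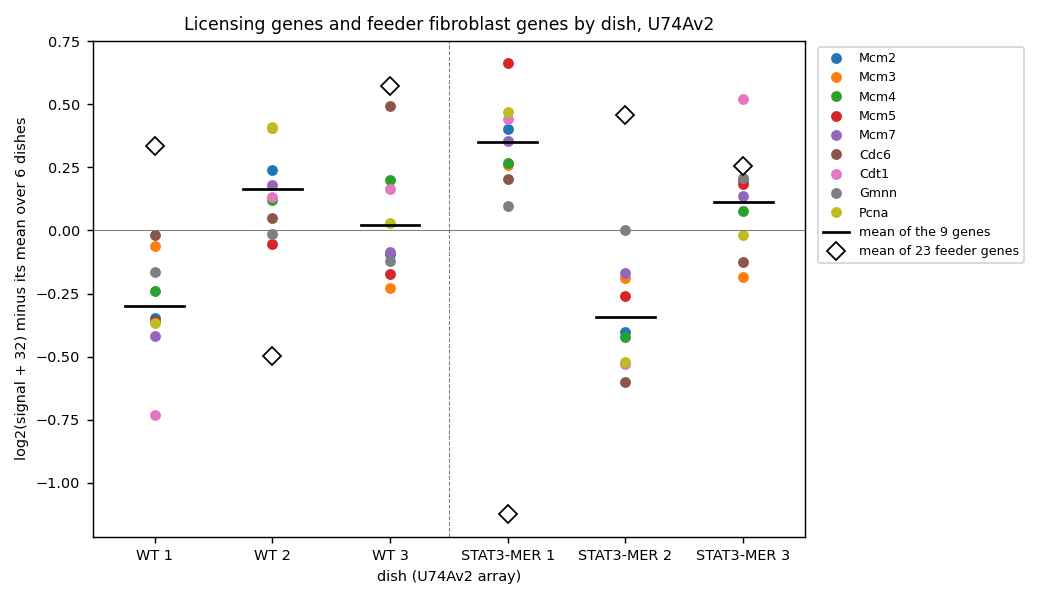
Log2(signal + 32) of the 9 genes represented on U74Av2, each minus its mean over the 6 dishes (coloured points), their mean (black line) and the mean of 23 feeder fibroblast genes (open diamonds), by dish. The gene mean is highest in STAT3-MER 1 (0.35) and lowest in STAT3-MER 2 (-0.34), and the feeder mean is lowest in STAT3-MER 1 (-1.12).

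To describe this covariation, Pearson's r over the 6 dishes was computed for the 45 pairs of the 10 genes. Its median was 0.62 (quartiles 0.26 and 0.78), 36 of the 45 pairs were above 0, and 12 had an exact permutation p under 0.05. After Benjamini-Hochberg adjustment over the 45 pairs 0 remained under 0.05, with a smallest adjusted p of 0.125. Over all 127416666 pairs of the 15964 genes the median r was 0.0025. The median of the 45 pairs was 0.71 on deviations from the group means, so the shared pattern lay within the groups, and it was 0.53 without WT 1 and without STAT3-MER 2.

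Within U74Av2, the 36 pairs of 9 genes had a median r of 0.70, with 35 above 0, where the 7142310 pairs of bright genes of that chip had a median of -0.0025 and quartiles of -0.41 and 0.41. The strongest pair was Mcm2 with Mcm7 (r = 0.94, exact permutation p = 0.00694, adjusted p = 0.125, rho = 0.94), with r = 0.99 when the farthest 2 dishes were left out. These dishes were chosen for each pair by distance from the median of the gene named first, so they differ between pairs. In pairs of probe sets of 1 gene, the representative probe set was used where the pair held it. Mcm2 with Pcna had r = 0.93 (exact permutation p = 0.0139, adjusted p = 0.125, rho = 0.94), and 0.73 without the farthest 2 dishes. For Mcm5 with Mcm7 the values were r = 0.88 (exact permutation p = 0.0181, adjusted p = 0.125, rho = 0.94), and 0.99 without the 2 dishes farthest for Mcm5. These 3 pairs thus kept their sign, whereas Mcm2 with Mcm4 went from 0.86 to 0.15, and Mcm4 with Cdt1 from 0.87 to -0.05, and so rest on the farthest dishes.

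Members differed in how far they shared the pattern. Mcm2 had r over 0.63 with each of the other genes on U74Av2 apart from Cdc6 (0.45). Mcm3 was less close to Mcm4 (0.42), Mcm5 (0.45) and Cdt1 (0.26), and Cdc6 was close to Mcm4 (0.82) but not to Mcm7 (0.26). Cdc6 and Gmnn, a loading factor and the inhibitor of loading, were the one pair of U74Av2 below 0 (r = -0.26, exact permutation p = 0.653). Mcm6, read on U74Cv2, ran against most of the others with the dishes as numbered: its r was -0.87 with Cdc6 (exact permutation p = 0.00417, adjusted p = 0.125, rho = -0.94, r = -0.64 without the farthest 2 dishes), -0.73 with Pcna and -0.72 with Mcm4, and it was above 0 only with Gmnn (0.39). For Mcm2, Mcm3, Mcm4, Mcm5 and Mcm7, a set formed after the values were seen, the median of the 10 pairs was 0.71, and with Mcm6 that of the 15 pairs was 0.58.

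**Figure D4:**
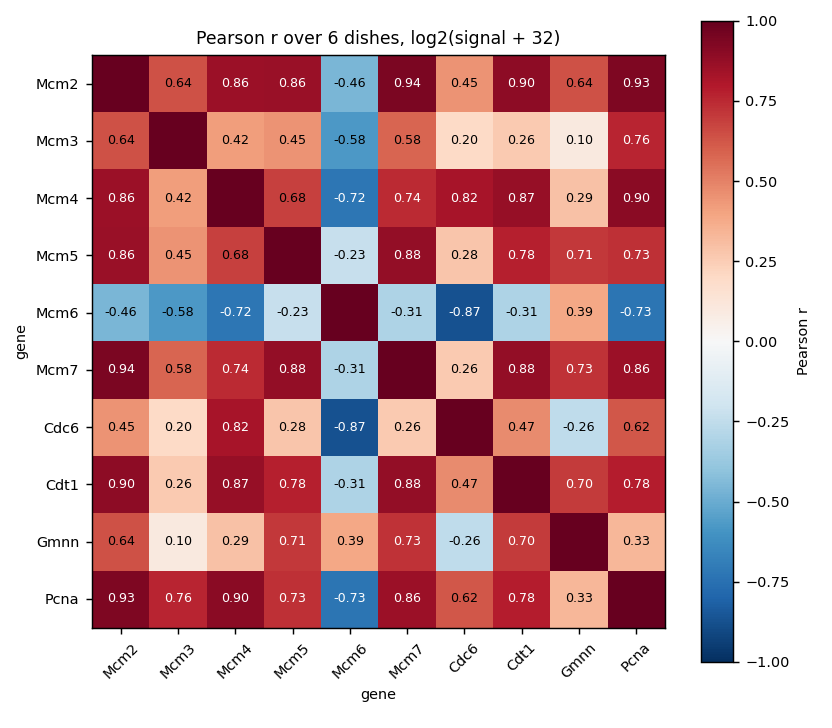
Pearson's r over the 6 dishes for each pair of the 10 genes (representative probe sets), from -1 (blue) to 1 (red). The block of Mcm2, Mcm4, Mcm5, Mcm7, Cdt1 and Pcna is red throughout (0.68 to 0.94), and the row of Mcm6 is blue apart from Gmnn (0.39).

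Probe sets of the same gene were compared within and between chips. Of the 10 pairs of probe sets of 1 gene, the Mcm3 pair on U74Av2 had r = 0.92 (exact permutation p = 0.0222, adjusted p = 0.181, rho = 0.89, 0.64 without the farthest 2 dishes). The Cdt1 pair on U74Av2 had r = 0.91 (exact permutation p = 0.0361, adjusted p = 0.181, rho = 0.60), but -0.32 without the farthest 2 dishes. The Mcm6 pair on U74Cv2 had r = 0.77, and the Mcm5 pair on U74Av2, with the dim 162102_r_at, had r = 0.50 (rho = 0.20). Pairs that join U74Av2 and U74Cv2 lay between -0.38 and 0.30 over 6 pairs. Each of these holds a probe set with a suffix letter, or 100149_at (no signal over 40.4) or 168772_at (103 to 309). The part of the chip thus cannot be told apart from that of the probe set. These values assume that a replicate number names the same dish on each chip, which is in doubt for numbers 1 and 2 on U74Av2. Whether the WT or the STAT3-MER numbers are in question was not tested, and only an exchange of the WT numbers is given. With WT 1 and 2 exchanged on that chip, the 6 pairs lay between -0.35 and 0.59, and the median of all 10 same-gene pairs went from 0.12 to 0.35. Mcm6 against the other genes is such a comparison between chips too. Under the exchange its r was -0.84 with Cdc6, -0.48 with Mcm4 and -0.38 with Pcna, its median over the 9 genes went from -0.46 to -0.14, and it was above 0 with Mcm7 (0.08) and Gmnn (0.59).

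The feeder genes moved against the members. Their mean on U74Av2, centred on the log2 scale, was 0.33, -0.50 and 0.57 in WT 1, 2 and 3 and -1.12, 0.46 and 0.26 in STAT3-MER 1, 2 and 3. The brightest of them were Col1a2, a collagen chain, at 9561, 4149 and 9352 over the WT dishes against 1978, 12565 and 8411 over the STAT3-MER dishes, and Acta2, an actin of contractile cells. Against this mean, r was below 0 for all 9 genes, from -0.87 for Mcm3 (exact permutation p = 0.0403, adjusted p = 0.13 over 9 relations, rho = -0.89) to -0.23 for Cdc6, and it was -0.81 for Mcm5 and for Pcna, -0.79 for Mcm2, -0.78 for Mcm7, -0.55 for Mcm4, -0.48 for Cdt1 and -0.37 for Gmnn. An adjusted p under 0.05 was reached by 0 of 9. Without STAT3-MER 1 and WT 2, the dishes farthest out, r was -0.57 for Gmnn, -0.54 for Mcm3, -0.45 for Mcm5, -0.36 for Mcm2, -0.15 for Mcm7, -0.11 for Cdt1, 0.05 for Pcna, 0.14 for Mcm4 and 0.38 for Cdc6. The relation thus shrank or turned in 8 of the 9 genes, and Gmnn was the exception. WT 3 had the highest feeder mean, and its mean of the 9 genes was 0.02. The r of other genes of the chip against the feeder mean is not given, so the count of 9 of 9 has no background to be read against. The part of the feeders in the pattern was not tested.

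The ES cell markers were divided in their order of dishes: WT 2 above WT 1 together with STAT3-MER 1 above STAT3-MER 2 was found in 6 of 14, and in 5 of the 11 on U74Av2. It was found in Pou5f1, Zfp42 and Utf1 and not in Nanog, Sox2 and Klf4, all named here after their values were seen. The summed signal of the 14 markers was 109500, 87580 and 76280 in WT 1, 2 and 3 and 100100, 82790 and 97860 in STAT3-MER 1, 2 and 3, with Dppa5a and Sox2 the brightest. The centred log2 mean of the 11 on U74Av2, which does not weight bright genes in this way, gave another order. It was -0.03, -0.04 and -0.29 in the WT dishes and 0.09, 0.13 and 0.13 in the STAT3-MER dishes. The median log2 difference of the ES cell markers was 0.19, with 11 of 14 above 0. The 13 markers of primitive endoderm and trophectoderm, led by Tfap2c and Lamb1, had a median log2 difference of 0.03. The dimmest of them was Cdx2, with means of 20.4 in WT and 16.1 in STAT3-MER dishes, while Gata4 had 363 and 367. The feeder list had a median of -0.22, with 2 of 25 genes above 0, and limma called 0 genes of these 3 lists.

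The rest of the licensing and firing machinery was measured for 28 of 28 genes, and limma called 0 in either direction. The count at an unadjusted limma p under 0.05 was 1 higher and 1 lower, beside 258 and 209 of all 15964 genes. The groups did not overlap for 1 gene higher and 2 lower (10.7%, beside 7.52% of all genes). Orc1, the largest subunit of the origin recognition complex, had 642, 649 and 756 in WT dishes, against 1034, 966 and 1227 in STAT3-MER dishes. Its log2 difference was 0.63 (SE 0.19, limma adjusted p = 1.00). Wdhd1, which links the helicase to DNA polymerase alpha, had 697, 819.8 and 890.5 in WT dishes, against 524, 472 and 497 in STAT3-MER dishes. Its log2 difference was -0.65 (SE 0.19, limma adjusted p = 1.00). The groups of both genes did not overlap, and neither gene passed the adjustment over all probe sets. Gins2 and Gins3, subunits of the GINS complex that activates the MCM ring, had log2 differences of -0.33 (with no signal over 38.7) and -0.56 (SE 0.38). Of the 28 genes 12 were above 0, and their median log2 difference was -0.06.

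Genes of the fork and of DNA synthesis were measured for 38 of 39, with 24 above 0 and a median log2 difference of 0.06. Tyms, the enzyme that makes thymidylate, had 12.6, 24.5 and 17.1 in WT dishes, against 75.2, 167 and 179 in STAT3-MER dishes on 168092_r_at. The log2 difference was 1.73 (SE 0.40, limma adjusted p = 1.00), on a probe set whose WT signals are among the dim ones and whose suffix marks relaxed design. Rfc4, a subunit of the loader of PCNA, had a log2 difference of 0.45 (SE 0.26), Rrm1, a subunit of ribonucleotide reductase, -0.28 (SE 0.21), and Rpa2, a subunit of the single-strand binding complex, 0.31 (SE 0.26). Limma called 0 of the 38, and groups did not overlap for 1 higher (Tyms) and 1 lower (Chaf1b), which is 5.26% beside 7.52% of all genes.

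Among the regulators of licensing and the E2F family, 27 of 28 were measured, 5 of the 27 were above 0, and the median log2 difference was -0.19. Limma called 0 of the 27 representative probe sets, and 0 of these had an unadjusted p under 0.05. Skp1, a shared subunit of the SCF ubiquitin ligases, had 3053, 3263 and 3336 in WT dishes, against 3047, 2417 and 2504 in STAT3-MER dishes. Its groups did not overlap, by a margin of a few units, and the log2 difference was -0.28 (SE 0.17). Skp1 was the only representative probe set of this list without overlap (3.7%, beside 7.52% of all genes). Cks1b, a partner of the SCF subunit Skp2, had -0.35 (SE 0.22), and Tfdp1 and Tfdp2, the partners with which E2F proteins bind DNA, had -0.42 (SE 0.26) and -0.31 (SE 0.21). Skp2, which marks Cdt1 for degradation, was read by a pair of probe sets. The representative one, 163495_at, had a log2 difference of -0.10 (SE 0.31). The other, 167824_f_at, lay between 5297 and 7887 in the WT dishes and between 3984 and 5232 in the STAT3-MER dishes, without overlap. Its log2 difference was -0.60 (SE 0.23, limma adjusted p = 1.00), with an unadjusted limma p under 0.05, and its suffix marks possible binding of other transcripts.

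Mitotic genes, which peak after replication, were measured for 25 of 26, with 13 above 0 and a median log2 difference of 0.04. Kif23, a motor of cell division, had 1010.3, 1126 and 823 in WT dishes, against 1378, 1374 and 1333 in STAT3-MER dishes. Its groups did not overlap, and the log2 difference was 0.46 (SE 0.18, limma adjusted p = 1.00). Kif23 was the only gene of this list without overlap (4%, beside 7.52% of all genes). Cdc25b, a phosphatase that activates CDK1, had -0.65 (SE 0.37), Ube2c, a ubiquitin carrier of the anaphase-promoting complex, -0.32 (SE 0.23), and Aurka, a spindle kinase, 0.25 (SE 0.20). Limma called 0 of the 25.

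The genes most like the helicase were searched by r over the 6 dishes with the mean of the centred log2 signals of Mcm2 to Mcm7, over 10142 genes with a mean signal of 200 or more. This mean was -0.23, 0.03 and -0.18 in WT 1, 2 and 3 and 0.23, -0.06 and 0.21 in STAT3-MER 1, 2 and 3. The highest r were those of Itpk1 (0.99), Cct6a (0.99, on U74Cv2), Hao1 (0.99, on U74Bv2), Klf5 (0.98) and Fpgs (0.98). The mean holds Mcm6 of U74Cv2, so all these r join chips by replicate numbers, which are in doubt for 1 and 2 on U74Av2. Itpk1, an inositol phosphate kinase, had 933, 1542 and 1044 in WT dishes, against 2237, 1248 and 2338 in STAT3-MER dishes. With the mean of Mcm2 to Mcm5 and Mcm7 alone, a choice made after the values were seen, the nearest were Ubxn8 (0.99), Tle1 (0.99), Dido1 (0.99), Dnaja3 (0.98) and Lasp1 (0.98), all 5 on U74Av2. The 5 names were different ones, so the nearest genes turned on the inclusion of Mcm6, and with 6 dishes an r of this size comes from the best of many genes.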

How the data were processed

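RNA of 3 WT and 3 STAT3-MER dishes was measured on 3 chips (18 arrays). The authors amplified it and deposited 1 linear signal intensity per probe set and array, scaled by them; the submitters' processing notes name MAS5, without a version. Arrays were scaled to the mean 2% trimmed mean of their chip, and log2(signal + 32) was fitted per chip with limma 3.58.1 (lmFit, eBayes with trend, two-sided) in R 4.3.3, with Benjamini-Hochberg adjustment over 36701 probe sets, after 198 controls were left out. No filter on dim probe sets was used. The authors' comparison values were not used. The t-test of the methods' criteria was run here with unequal variances, a setting that the study does not state.

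Gene names are those of the chip annotation: 29131 probe sets have 1 gene, of which 29044 matched RefSeq (GRCm38.p6), 724 have several and 6846 none. The representative probe set of a gene has no suffix letter where possible, then the highest signal. Correlations used exact enumeration of 720 orders (scipy 1.17.1, numpy 2.4.6). Scripts were tested on simulated data. The number of arrays limits the precision.

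The members, gene lists and tests were chosen with earlier results of these data known. Named were all member probe sets, the 4 genes of each pathway list with the smallest p, the 5 most similar genes, Esr1 and Skp2, and the brightest 2 of each marker list. Chaf1b, Cdx2, Gata4, Pou5f1, Zfp42, Utf1, Nanog and Klf4 were named after their values were seen. Alternatives covered scaling, pseudocount, dim filter, variance model, replicate block, adjustment, probe set choice, chip joining and leaving out each dish. One array whose labels name 2 chips was taken as U74Cv2 by its title.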

Additional observations from a re-analysis of the deposited data

How the results depend on the processing

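Under 15 alternatives 0 member probe sets were called (17 tested, or 15 with dim probe sets left out), and the smallest unadjusted limma p of a member was 0.0189, without WT replicate 3. Leaving out 1 dish gave 1 to 3 probe sets without overlap that were higher and 0 to 1 lower, 0 to 1 under the methods' criteria, and a median r of 0.53 to 0.69 over the 45 pairs and of 0.63 to 0.85 over the 10 pairs without Mcm6. For these counts of probe sets, and for that under quantile normalization, the share of all probe sets is not given. Quantile normalization gave 2 higher probe sets without overlap (Mcm5 167677_r_at beside Gmnn), a median r of 0.53 over the 45 pairs and 0.63 over the 10. The median r was 0.71 and 0.87, in that order, on deviations from the group means. It was 0.70 for pairs on the same chip, and 0.45 with the mean over all probe sets of a gene. Log2 differences changed sign for Mcm2 (-0.01 without WT 1, and -0.03 to 0.37 when each dish was left out), Mcm3 (0.11 without WT 2, with a range of -0.23 to 0.11, and 0.01 as the mean of its probe sets), Mcm4 (0.03 without WT 3 and 0.14 without STAT3-MER 2, range -0.20 to 0.14), Cdt1 (-0.01 without WT 1, range -0.01 to 0.62) and Pcna (0.15 without WT 2 and 0.20 without STAT3-MER 2, range -0.29 to 0.20), and the cause was not tested. Mcm5, Mcm6, Mcm7, Cdc6 and Gmnn kept their sign under each setting. With the replicate number as a block, 0 of 17 were called. Deviations of dishes with the same number had r of -0.30, -0.34 and 0.29 on U74Av2 for numbers 1, 2 and 3, and of 0.07 to 0.21 on the other chips, so the numbers were not taken as pairs. As a hint from the data, each dish was closest to its own number on those chips, and on U74Av2 this held for number 3 alone, where WT 1 went with STAT3-MER 2 (0.46) and WT 2 with STAT3-MER 1 (0.41). With WT 1 and 2 exchanged on U74Av2 the median r stayed at 0.62 over the 45 pairs and went from 0.12 to 0.35 over the 10 pairs of probe sets of 1 gene. The unchanged 0.62 says little on the numbering, since both genes are on U74Av2 in 36 of the 45 pairs and their r cannot change. Only the 9 pairs with Mcm6 could move, and their median went from -0.455 to -0.136. An exchange of STAT3-MER 1 and 2 would pair the same dishes, and its values are not given. Without detection calls, what is above background is unknown for dim probe sets such as Mcm6 100149_at.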
